A study of Homo sapiens with 52 samples.

Results

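The 8 genes described here encode the muscle nicotinic acetylcholine receptor and the proteins that gather it under the nerve ending: the receptor subunits CHRNA1, CHRNB1, CHRND, CHRNG and CHRNE, the receptor tyrosine kinase MUSK, its cytoplasmic activator DOK7 and the scaffold protein RAPSN (rapsyn). They were chosen by name from the 27043 genes listed for each of 52 RNA-seq libraries of fusion-positive rhabdomyosarcoma (FP-RMS) cells, a tumour of the skeletal muscle lineage, and all 8 were among the 16359 genes tested. All libraries come from cultures of a line carrying the PAX3-FOXO1 fusion, and the screen libraries are titled RH41 although RH4 is given as their cell line. The screen exposed cells for 6 h to 20 compounds, each at a high dose and at a low dose 10 times below it (10 and 1 µM, or 5 and 0.5 µM for LAQ824, Cpd50 and GSKJ4), with 1 library per compound and dose, and to the solvent DMSO at 0.2% and at 0.1%, with 2 libraries each. The titles of 2 further experiments say RH4: N1302 at 1 µM with 1 DMSO library at 6 h, and entinostat at 1 µM with DMSO at 1, 6 and 24 h, 1 library each.

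By the targets in the labels, 7 screen compounds act on histone acetylation, namely LAQ824 (HDACs), Merck60 (HDAC1/2), MC1568 (HDAC4/5), WT161 (HDAC6), OJI-1 (HDAC8), Bromosporin (bromodomains) and SGC-CBP30 (CREBBP/EP300). A further 11 act on histone methylation: UNC0638 (G9a), EZ-005 (EZH2), UNC1999 (EZH1), SGC0946 (DOT1L), PFI-2 (SETD7), UNC-1215 (L3MBTL3), GSKJ4 (JMJD3 and UTX), Cpd50 (Jumonji demethylases), and GSKLSD1, LSD-519 and LSD-690 (LSD1). PFI-3 (SMARCA4) and trametinib (MEK1/2) belong to neither class. N1302 and entinostat inhibit HDACs, entinostat HDAC1/2/3.

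The muscle receptor is a ring of subunits that opens a cation channel when acetylcholine binds. Fetal and denervated muscle uses the γ subunit (CHRNG), which the ε subunit (CHRNE) replaces in innervated adult fibres, while the α (CHRNA1), β (CHRNB1) and δ (CHRND) subunits are common to both forms. Agrin released by the motor nerve binds LRP4, which activates MUSK, DOK7 reinforces that activation from inside the cell, and rapsyn then ties receptors into clusters. Several of these genes are known direct targets of the myogenic factors MYOD1 and MYOG, which bind E-boxes (CANNTG), and some synaptic promoters carry an N-box (CCGGAA) bound by GABP, an ETS factor made of GABPA and GABPB1.

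The promoter sequences of 5 genes are shown first because they carry these motifs close to the start of the gene. Each is the 250 bases before the RefSeq start in GRCh38.p14, 5′ to 3′ on the gene's own strand. Capitals mark the E-box CAGCTG and the E-box CAGGTG, which reads CACCTG on the other strand, as well as the N-box CCGGAA, which reads TTCCGG on the other strand; both strands were searched. The windows lie at chr2:174764473-174764722 (CHRNA1, minus strand), chr17:7444811-7445060 (CHRNB1, plus), chr2:232525910-232526159 (CHRND, plus), chr17:4903099-4903348 (CHRNE, minus) and chr9:110668541-110668790 (MUSK, plus).
CHRNA1: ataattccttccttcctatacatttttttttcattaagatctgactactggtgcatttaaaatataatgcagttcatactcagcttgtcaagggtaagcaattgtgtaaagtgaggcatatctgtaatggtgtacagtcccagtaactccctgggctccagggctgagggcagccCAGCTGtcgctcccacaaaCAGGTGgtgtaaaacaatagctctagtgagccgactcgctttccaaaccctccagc
CHRNB1: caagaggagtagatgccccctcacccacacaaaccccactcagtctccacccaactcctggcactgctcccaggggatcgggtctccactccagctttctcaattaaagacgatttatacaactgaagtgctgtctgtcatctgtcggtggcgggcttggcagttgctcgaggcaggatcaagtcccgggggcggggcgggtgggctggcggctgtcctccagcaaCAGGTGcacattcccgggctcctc
CHRND: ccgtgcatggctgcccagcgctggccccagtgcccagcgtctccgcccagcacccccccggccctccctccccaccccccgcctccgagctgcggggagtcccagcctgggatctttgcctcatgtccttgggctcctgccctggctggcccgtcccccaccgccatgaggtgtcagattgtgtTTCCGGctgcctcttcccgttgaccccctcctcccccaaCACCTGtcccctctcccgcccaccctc
CHRNE: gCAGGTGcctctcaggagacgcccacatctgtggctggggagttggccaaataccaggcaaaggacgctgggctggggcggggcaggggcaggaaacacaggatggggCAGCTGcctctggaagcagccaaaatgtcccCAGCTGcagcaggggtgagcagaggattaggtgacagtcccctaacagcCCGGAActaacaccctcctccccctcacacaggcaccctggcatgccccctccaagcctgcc
MUSK: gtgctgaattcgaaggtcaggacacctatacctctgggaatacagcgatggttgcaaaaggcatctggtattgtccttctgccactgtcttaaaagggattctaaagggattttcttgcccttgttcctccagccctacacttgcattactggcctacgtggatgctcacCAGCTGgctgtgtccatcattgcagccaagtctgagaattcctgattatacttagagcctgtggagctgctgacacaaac

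The CHRNA1 window holds a CAGCTG and a CAGGTG that start 75 and 56 bases before the gene start. CHRNB1 has a CAGGTG starting 24 bases before the gene and CHRND a CACCTG starting 27 bases before it. MUSK has a CAGCTG starting 80 bases before its start, and CHRNE 2 CAGCTG copies and 1 CAGGTG. The N-box letters appear 66 bases before the start of CHRND and 62 bases before that of CHRNE. Both DOK7 windows hold none of these letters. Of 35116 RefSeq promoters of the same length, 28.7% hold CAGCTG or CAGGTG and 14.5% hold CCGGAA, so either match is common. RefSeq windows were matched for 6 of the 8 genes; CHRNG and RAPSN had no entry.

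In the hg19 coordinates of the tables, CHRNA1 lies at chr2:175612323-175629200, CHRNB1 at chr17:7348406-7360932, CHRND at chr2:233390870-233401375, CHRNG at chr2:233404437-233411038, CHRNE at chr17:4801064-4806369, MUSK at chr9:113431051-113563278, DOK7 at chr4:3465033-3503200 and RAPSN at chr11:47459308-47470730. CHRND and CHRNG are neighbours on the plus strand. CHRNG overlaps TIGD1 on the opposite strand, and CHRNE overlaps MINK1 and C17orf107 on the opposite strand. The counting is not stated to use strand, so reads in these overlaps cannot be assigned to one gene with certainty.

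Depth, worked out from the TPM values, a unit that allows for gene length, ranged from 5737939 to 41415071 reads per library. In the screen's DMSO libraries the muscle genes DES (413 to 443 TPM), MYOD1 (640 to 648) and MYOG (572 to 587) were high, PTPRC of leukocytes, KRT5 of epithelium and CHAT of motor neurons were at 0 in all 4 libraries, CD3E, PECAM1, CDH5, EPCAM and CDH1 did not exceed 0.15, and of the fibroblast markers COL1A1 stood at 89.7 to 102 TPM with LUM between 0.077 and 0.22, DCN between 2.02 and 2.36 and PDGFRA between 6.51 and 7.41. MNX1 of motor neurons was at 2.88 to 3.59 TPM, and VWF of endothelium was at 0.23 to 0.52. Both DMSO libraries of a concentration were sequenced on 2 flow cells. Over 10378 genes with at least 100 reads, the concentration effect varied 2.47 times and the flow-cell effect 2.21 times as much as counting noise, whereas their interaction varied 1.03 times as much. Beyond a shift common to a flow cell, the libraries of one concentration therefore differed by no more than counting noise, and they were counted as 1 sample, which gives n = 2 for DMSO. The flow cell that carried 28 libraries of 14 compounds held no DMSO library, so for those compounds the flow cell and the treatment cannot be told apart in a comparison with DMSO, and values relative to the other compounds of that flow cell are given as well. Nothing in the labels says that libraries came from separate cultures, so p-values measure the spread between these libraries. In the screen fit the high and low dose stood as the 2 samples of a compound, and the 2 DMSO concentrations as those of DMSO. Its SEs and p-values therefore rest on the spread between doses, pooled over all compounds, and not on repeats of a dose.

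The question asked of the controls was how strongly FP-RMS cells transcribe the synaptic genes. CHRNA1 was the highest in screen DMSO, at 723 and 731 TPM at 0.2% and 746 and 749 TPM at 0.1%, a mean of 737 ± 14.7 TPM (SD, n = 2). RAPSN followed at 316 and 327, then 334 and 336 TPM (328 ± 9.44). CHRNB1 stood at 151 and 141, then 165 and 152 TPM (152 ± 8.97). These 3 genes did not overlap in level, and CHRNA1, which contributes more than one subunit to each receptor, was 4.84 times CHRNB1.

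CHRND was measured at 99.1 and 93.7, then 109 and 108 TPM (102 ± 8.32). DOK7 was lower, at 72.3 and 71.8, then 80.1 and 84.9 TPM (77.3 ± 7.40). CHRNG at 14.7 and 14.6, then 16.5 and 15.5 TPM (15.3 ± 0.966) and MUSK at 14.6 and 14.1, then 16.7 and 15.0 TPM (15.1 ± 1.05) were neighbours that did not differ beyond their spread. CHRNE was the lowest, at 0.87 and 0.69, then 1.06 and 0.95 TPM (0.893 ± 0.160), from 14 to 19 reads. Across all 52 libraries CHRNE rested on 1 to 75 reads, while CHRNA1 had at least 1869.

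The γ subunit of the fetal receptor exceeded the ε subunit of the adult receptor in 52 of 52 libraries. The TPM ratio of CHRNG to CHRNE was 15.5 to 21 in screen DMSO and 52.5 to 115 in the 4 other DMSO libraries, and over all libraries it ran from 2.62 to 273. CHRNE rested on few reads, so the ratio is imprecise in any 1 library. TIGD1, which shares sequence span with CHRNG, was at 12.3 to 15.7 TPM in screen DMSO, and MINK1 and C17orf107, which overlap CHRNE, were at 24.5 to 25.7 and 0.371 to 0.519 TPM; their part in the values was not tested.

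**Figure D1:**
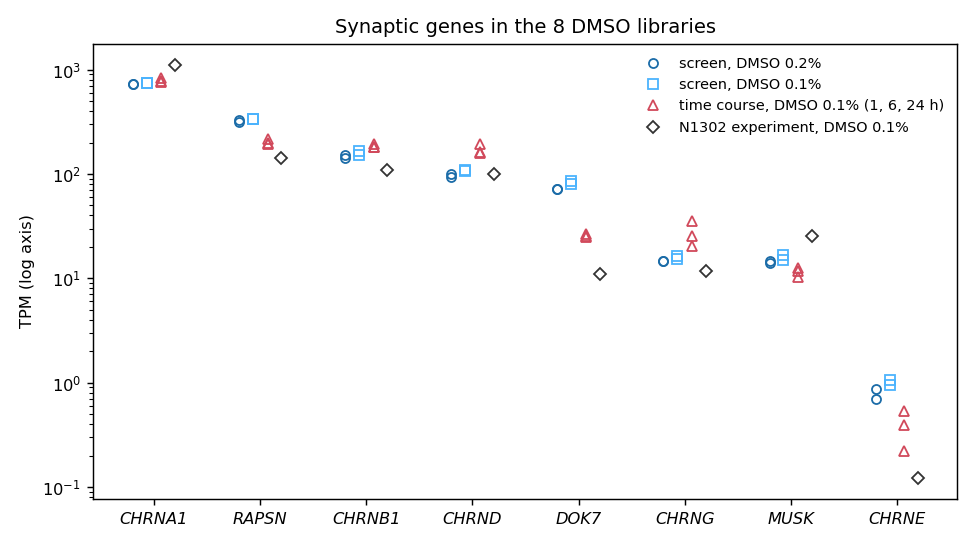
TPM of the 8 genes (y axis, logarithmic) in each of the 8 DMSO libraries; circles and squares are the screen at 0.2% and 0.1% DMSO, triangles the time course and diamonds the N1302 experiment. CHRNA1 is the highest and CHRNE the lowest of the 8 genes in every library, while DOK7 runs from 11 TPM in the N1302 experiment to 84.9 TPM in the screen.

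In the DMSO libraries titled RH4 several levels lay outside the range of the screen controls. The share of all genes outside that range was not counted. In the time course CHRNA1 measured 837, 765 and 770 TPM at 1, 6 and 24 h, and 1116 TPM in the N1302 experiment. DOK7 was at 26.7, 25.2 and 25.0 TPM, below each screen value, and at 11 TPM in the N1302 control. CHRND, at 163, 159 and 192 TPM in the time course, was above every screen control. The screen mean of DOK7 was 3.02 times and that of RAPSN 1.62 times the time-course mean, whereas that of CHRND was 0.597 and that of CHRNG 0.563 times it. The screen and these experiments differ in title and were not tested against each other. CHRNG was at 20.6 TPM in the 1 h control, 25.6 at 6 h and 35.3 at 24 h, with 1 library at each time.

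Differences between 0.2% and 0.1% DMSO ran from -0.04 (CHRNA1) to -0.19 (DOK7) on the log2(TPM + 1) scale. The share of all genes that were lower at 0.2% was not counted. None passed the test after adjustment, and the 2 genes under an unadjusted limma p of 0.05 were CHRND (log2 difference -0.17) and DOK7 (-0.19). Over all 16359 genes 0 passed and 1548 had an unadjusted p under 0.05.

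The screen asked which chromatin-directed compounds alter transcription within 6 h. A gene was called where limma gave an adjusted p below 0.05 over all genes and a change of at least 2-fold, that is 1 on the log2(TPM + 1) scale. Of the 160 pairs of a synaptic gene and a compound, 20 were called lower and 3 higher, in 8 of the 20 compounds. Of the lower calls 18, or 90%, fell under acetylation compounds, as did 88.7% of the 4979 lower calls over all genes. They were 7 under LAQ824, 5 under WT161, 4 under Bromosporin and 2 under SGC-CBP30, and trametinib and UNC0638 gave 1 each. The higher calls were 2 under MC1568 and 1 under Cpd50. No gene was called under the other 12 compounds, among them the HDAC1/2 inhibitor Merck60 and the HDAC8 inhibitor OJI-1. Under these 12 compounds few of all genes were called, at most 0.935% higher (GSKLSD1) and 0.061% lower (PFI-2).

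**Figure D2:**
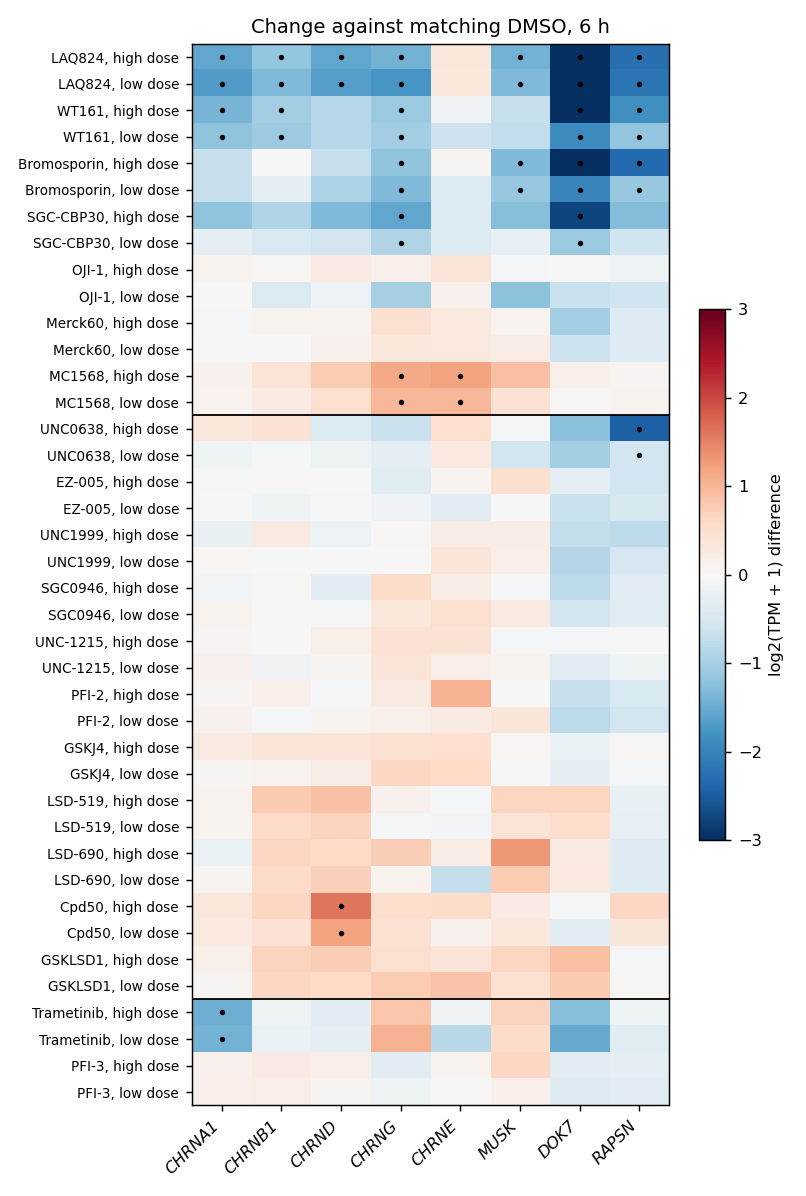
Difference in log2(TPM + 1) from DMSO of the matching concentration for each of the 40 treated screen libraries (rows, grouped as acetylation, methylation and other compounds between black lines) and the 8 genes (columns); red is higher, blue lower, and a black dot on both doses marks a gene called for that compound. Blue runs through LAQ824, WT161, Bromosporin and SGC-CBP30 for most genes. CHRNE is higher than DMSO under LAQ824 (0.33 at both doses), and at the high dose of Bromosporin CHRNE (0.08) and CHRNB1 (-0.01) are near DMSO.

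LAQ824, an HDAC inhibitor, lowered 7 of the 8 genes. In comparison, 11.6% of all genes tested were called lower under it, and their median change was 0.06 against -1.60 for the synaptic genes. CHRNA1 measured 246 TPM at 5 µM and 228 TPM at 0.5 µM, compared with 723 to 749 TPM in DMSO, a log2 change of -1.63 ± 0.18 (SE, adjusted p = 1.46e-07). CHRNB1 measured 65.3 and 62.9 TPM (-1.23), CHRND 32.0 and 34.0 TPM (-1.60), and CHRNG 4.80 and 3.97 TPM (-1.60). The 2 doses lay close together and every treated value lay below all 4 DMSO values of its gene. The share of all genes that did not overlap with DMSO was not counted.

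DOK7 and RAPSN had the largest changes under LAQ824. DOK7 was at 8.19 TPM at 5 µM and 7.71 TPM at 0.5 µM against 71.8 to 84.9 in DMSO (log2 change -3.13 ± 0.43, adjusted p = 1.85e-06). RAPSN was at 66.8 and 72.5 TPM against 316 to 336 (-2.22 ± 0.38, adjusted p = 2.87e-05), and MUSK at 4.71 and 5.68 TPM against 14.1 to 16.7 (-1.38 ± 0.30, adjusted p = 0.000402). CHRNE, in contrast, was at 1.24 and 1.52 TPM, above its 4 DMSO values of 0.694 to 1.06, a change of 0.33 that did not pass the test (adjusted p = 0.27). LAQ824 shared a flow cell with 2 DMSO libraries, and against those alone the changes of the 7 genes ran from -1.18 (CHRNB1) to -3.14 (DOK7). MYOD1 stood at 71.0 to 75.1 TPM and MYOG at 49.2 to 51.0 TPM in the same libraries, compared with 640 to 648 and 572 to 587 TPM in DMSO.

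Under WT161, aimed at HDAC6, 5 genes were called lower, where 5.04% of all genes were called lower. CHRNA1 measured 274 TPM at 10 µM and 322 TPM at 1 µM (log2 change -1.31 ± 0.18, adjusted p = 1.20e-05), and CHRNB1 69.8 and 73.5 TPM (-1.08 ± 0.13, adjusted p = 3.47e-06). DOK7 measured 7.32 and 21.6 TPM (-2.51 ± 0.43, adjusted p = 0.000110). The high dose of WT161 brought DOK7 to the level seen under LAQ824, and the low dose did not. RAPSN at 89.6 and 147 TPM (-1.51) and CHRNG at 6.21 and 7.23 TPM (-1.08) were also called. CHRND, at 52.7 and 59.6 TPM, passed the adjusted p (0.0022) with a change of -0.85, short of 2-fold, and MUSK measured 8.57 and 9.11 TPM. Relative to the other compounds of the same flow cell, CHRNA1 (-1.11), CHRNB1 (-1.13) and DOK7 (-1.71) were past the threshold, while CHRNG (-0.97) was short of 2-fold and RAPSN (-0.88, adjusted p = 0.053) passed neither criterion. All 5 calls were lost in a fit on the WT161 and DMSO libraries alone, with adjusted p of 0.074 to 0.10. That fit called 0 of all 16359 genes.

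Under Bromosporin, a bromodomain inhibitor, the clustering genes and CHRNG were called lower, where 9.02% of all genes were called lower. DOK7 measured 6.56 TPM at 10 µM and 20.1 TPM at 1 µM (log2 change -2.63 ± 0.43, adjusted p = 0.000130). RAPSN measured 63.2 and 151 TPM (-1.74 ± 0.38, adjusted p = 0.00120), MUSK 5.10 and 6.60 TPM (-1.24), and CHRNG 5.73 and 5.81 TPM (-1.27). CHRNB1 stood apart, at 145 and 129 TPM against 141 to 165 TPM in DMSO, a change of -0.15. CHRNA1, at 453 and 460 TPM (-0.69), and CHRND, at 59.3 and 55.7 TPM (-0.82), passed the adjusted p of 0.05 without reaching 2-fold. The 4 called genes were also past the threshold against the other compounds of the flow cell, with changes from -1.13 (RAPSN) to -1.83 (DOK7). They were lost in a fit on the Bromosporin and DMSO libraries alone (adjusted p = 0.15 to 0.19), which called 0 of all 16359 genes.

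SGC-CBP30, aimed at CREBBP/EP300, gave 2 lower calls, where 1.19% of all genes were called lower, and its doses differed widely. DOK7 was at 9.75 TPM at 10 µM and 37.4 TPM at 1 µM (log2 change -1.94 ± 0.43, adjusted p = 0.0111), and CHRNG at 4.27 and 8.13 TPM (-1.23 ± 0.26, adjusted p = 0.00801). At 10 µM CHRNA1 measured 316 TPM, CHRND 38.0, MUSK 5.39 and RAPSN 130, compared with 624, 73.3, 13.3 and 223 TPM at 1 µM. Each of these genes was thus lower at the high dose, for which there was 1 library. Both calls were lost when either DMSO concentration was left out (range of adjusted p over all alternatives 0.000540 to 0.25), and relative to the other compounds of the flow cell DOK7 (-1.10, adjusted p = 0.14) was not past the threshold.

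**Figure D3:**
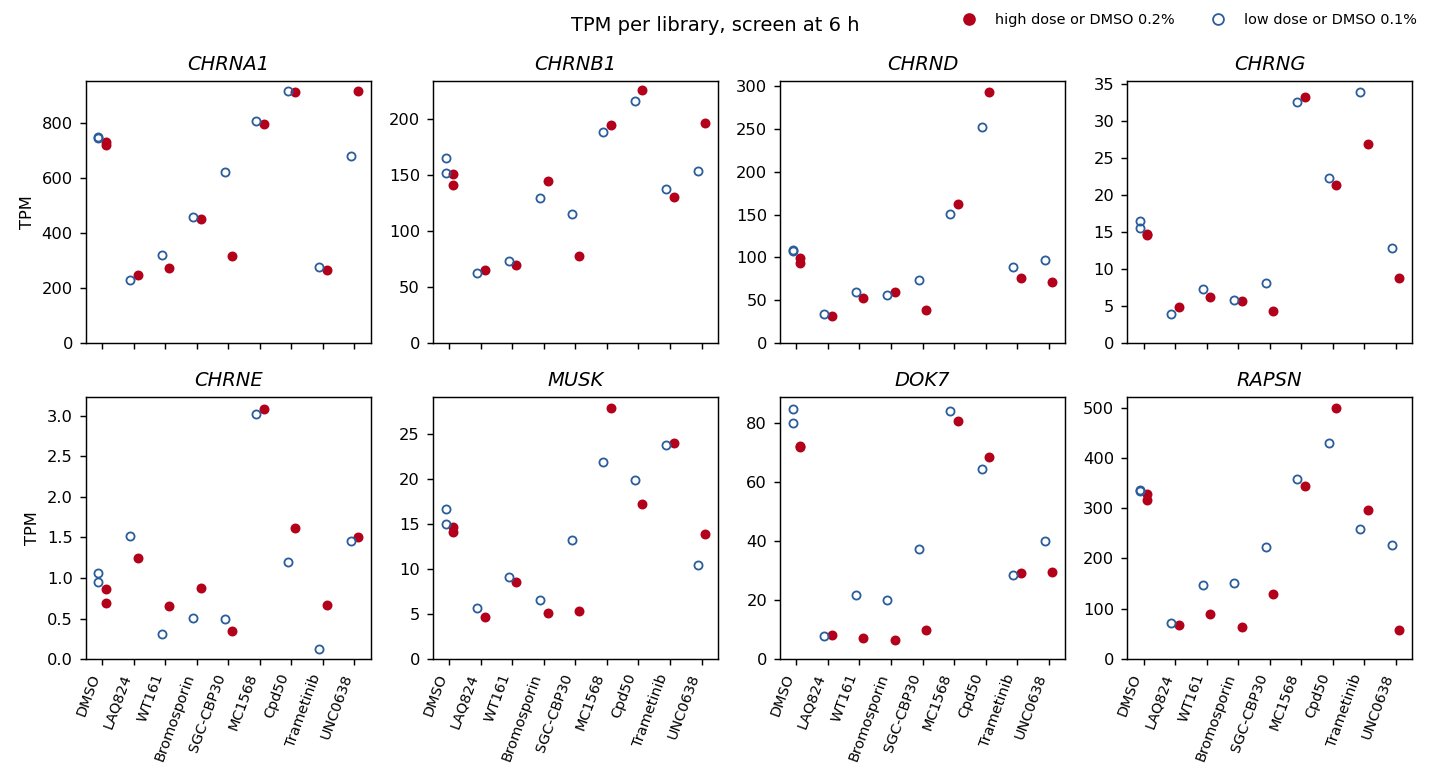
TPM of each gene (y axes from 0) in the screen libraries of DMSO and of the 8 compounds with at least 1 called gene; filled red points are the high dose or 0.2% DMSO, open blue points the low dose or 0.1% DMSO, 1 library per point. CHRNA1 is low under trametinib while CHRNG is high, and RAPSN under UNC0638 falls to 58.0 TPM at the high dose.

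Under trametinib, the inhibitor of the MEK kinases, the receptor subunits went in different directions. CHRNA1 was called lower, at 264 TPM at 10 µM and 278 TPM at 1 µM (log2 change -1.44 ± 0.18, adjusted p = 3.07e-05), where 0.611% of all genes were called lower. CHRNG moved the other way, to 26.9 and 33.9 TPM against 14.6 to 16.5 in DMSO, a change of 0.94 that passed the adjusted p (0.048) and fell short of 2-fold. DOK7 measured 29.3 and 28.4 TPM (-1.39, adjusted p = 0.089; -0.50, adjusted p = 0.68, relative to the other compounds of the flow cell), and MUSK 24.0 and 23.8 TPM (0.63, adjusted p = 0.38). CHRNB1 at 131 and 137 TPM, CHRND at 76.0 and 88.4 TPM and RAPSN at 296 and 259 TPM did not pass the test. Relative to the other compounds of the flow cell CHRNA1 differed by -1.25 and CHRNG by 1.20 (adjusted p = 0.000290 and 0.00402), both past the threshold. MYOG measured 1282 and 1287 TPM and MYOD1 358 to 429 TPM under trametinib.

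UNC0638, a G9a inhibitor, gave 1 lower call, RAPSN (log2 change -1.51 ± 0.38, adjusted p = 0.0148), where 2.46% of all genes were called lower. The mean rests on the high dose: RAPSN was at 58.0 TPM at 10 µM, the lowest of all screen libraries, and at 226 TPM at 1 µM. In the 10 µM library CHRNA1 was at 920 TPM, level with the 919 and 916 TPM under Cpd50, and CHRNB1 at 197 TPM. These 2 subunits thus lay above and RAPSN below their DMSO values in 1 library without a replicate. The call was lost when either DMSO concentration was left out and relative to the other compounds of the flow cell (-0.88, adjusted p = 0.081; range over all alternatives 0.00160 to 0.62). TIGD1 was at 4.54 TPM in 1 of the 2 UNC0638 libraries and at 16.1 TPM in the other, against 12.3 to 15.7 TPM in DMSO.

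MC1568, aimed at HDAC4/5, raised both subunits that mark the fetal and the adult receptor, where 6.84% of all genes were called higher. CHRNG measured 33.3 TPM at 10 µM and 32.6 TPM at 1 µM (log2 change 1.06 ± 0.26, adjusted p = 0.00470). CHRNE measured 3.08 and 3.03 TPM against 0.694 to 1.06 (1.10 ± 0.25, adjusted p = 0.00271). CHRND at 163 and 150 TPM passed the adjusted p (0.030) with a change of 0.61, and MUSK measured 27.9 and 21.9 TPM (0.68, adjusted p = 0.10). RAPSN (0.09) and DOK7 (0.10) stayed near DMSO. The median change of all genes was 0.26 under MC1568. The genes that overlap CHRNE were also higher, MINK1 at 37.8 to 45.8 TPM and C17orf107 at 1.57 to 1.84 TPM, and TIGD1, which overlaps CHRNG, was at 18.2 to 20.3 TPM; their part in the result was not tested. Against the 2 DMSO libraries of its flow cell the changes were 1.08 for CHRNG and 1.16 for CHRNE. Without the 0.2% DMSO libraries CHRNG was short of 2-fold, at 1.00.

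Cpd50, an inhibitor of Jumonji demethylases, raised CHRND, where 2.01% of all genes were called higher. CHRND was at 293 TPM at 5 µM and 253 TPM at 0.5 µM, above every other screen library (log2 change 1.41 ± 0.20, adjusted p = 2.97e-05), and the change was 1.38 against DMSO of the same flow cell. CHRNB1, at 226 and 216 TPM, changed by 0.54 (adjusted p = 0.0144), and RAPSN, at 499 and 429 TPM, by 0.49 (adjusted p = 0.61). The adjacent gene CHRNG, at 21.4 and 22.3 TPM, changed by 0.49 (adjusted p = 0.36).

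The 3 LSD1 inhibitors gave similar values for CHRNB1. It measured 235 and 246 TPM under GSKLSD1, 254 and 235 TPM under LSD-519, and 224 and 238 TPM under LSD-690, at 10 and 1 µM. The log2 changes were 0.66, 0.68 and 0.60, with adjusted p of 0.00505, 0.00995 and 0.0226, short of 2-fold in each case. Without the 0.2% DMSO libraries the limma adjusted p were 0.10, 0.24 and 0.31, and without the 0.1% libraries 0.034, 0.077 and 0.13. By the adjusted p alone, 460, 89 and 175 of all 16359 genes were higher under the 3 compounds in that order. CHRND was at 146 to 177 TPM in these 6 libraries (changes of 0.65 to 0.77) and passed the adjusted p against DMSO under none of them. Relative to the other compounds of the flow cell, it passed under LSD-519 (0.96, limma adjusted p = 0.011) and LSD-690 (0.84, adjusted p = 0.026), short of 2-fold. GSKLSD1 was on another flow cell. DOK7 reached 136 and 143 TPM under GSKLSD1, the highest in the screen, but its change of 0.85 did not pass (adjusted p = 0.38). MUSK measured 37.1 and 27.5 TPM under LSD-690 (1.04, adjusted p = 0.093), and it was called with all 4 DMSO libraries as separate samples (adjusted p = 0.0145). It was also called relative to the other compounds of the flow cell (1.13, adjusted p = 0.043), where 62 of all 16359 genes were called higher. Differences among the 3 compounds were not tested.

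Merck60 and OJI-1 each left the 8 genes without a call, and nearly all other genes as well. Of all 16359 genes, 4 were called lower and 2 higher under Merck60, and 9 lower and 3 higher under OJI-1. Under Merck60 CHRNA1 was at 700 and 745 TPM (-0.03), RAPSN at 244.9 and 254.8 TPM (-0.39, adjusted p = 0.95) and DOK7 at 35.2 and 52 TPM (-0.83 ± 0.43, adjusted p = 0.74). Relative to the other compounds of the flow cell the differences under Merck60 were 0.32 for RAPSN and 0.10 for DOK7. Under OJI-1 the low dose was the lower one, with CHRNG at 7.55 TPM at 1 µM and 16.4 TPM at 10 µM, and MUSK at 6.13 and 13.9 TPM.

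Over compounds, the mean of the 7 acetylation compounds was below that of the 11 methylation compounds for each gene. This did not hold for every compound: under MC1568, of the acetylation class, the changes from DMSO ran from 0.09 (RAPSN) to 1.10 (CHRNE). The share of all genes with a lower acetylation mean was not counted. The difference in mean log2(TPM + 1) was -1.36 ± 0.40 for DOK7 (SE, adjusted p = 0.058), -0.82 ± 0.30 for CHRNG, -0.82 ± 0.24 for MUSK, -0.79 ± 0.27 for CHRND, -0.69 ± 0.19 for CHRNB1, -0.68 ± 0.19 for CHRNA1, -0.67 ± 0.29 for RAPSN and -0.13 ± 0.19 for CHRNE. None passed limma's test at an adjusted p of 0.05, though 7 of the 8 had an unadjusted p under 0.05, as did 5018 of the 16359 genes tested, of which 0 passed after adjustment. The acetylation compounds were themselves spread, with DOK7 means of SD 1.25 against 0.61 for the methylation compounds. Without MC1568 7 of the 8 genes passed, where 15.3% of all genes did, without Merck60 6 (16.3% of all genes) and without OJI-1 5 (18.7%). Without LAQ824, WT161, Bromosporin or SGC-CBP30 0 of the 8 and 0 of all genes passed, and with flow cell as a covariate 0 passed as well (smallest adjusted p = 0.365 by limma).

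**Figure D4:**
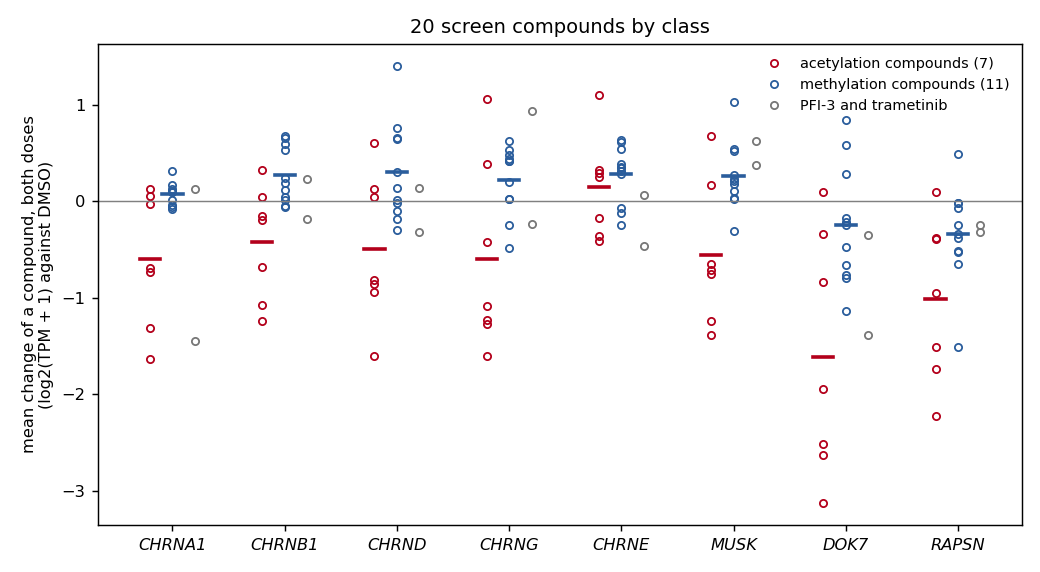
Mean change of each compound over both doses (y axis, difference in log2(TPM + 1) from DMSO) by gene; red circles are the 7 acetylation compounds, blue the 11 methylation compounds, grey PFI-3 and trametinib, and bars are class means. The red points spread widely, from -3.13 to 0.10 for DOK7, while CHRNE shows little separation.

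The step from the low to the high dose was tested within each class. Among acetylation compounds the largest mean steps were -0.69 ± 0.90 for DOK7 (SD, n = 7, lower in 5 of 7; limma adjusted p = 0.38) and -0.37 ± 0.56 for RAPSN (lower in 6 of 7; adjusted p = 0.39). Among methylation compounds CHRND stepped by -0.16 ± 0.21 (n = 11, lower in 8 of 11; adjusted p = 0.45). None of the 8 genes passed in either class (limma; unadjusted p under 0.05 in 0 and 1 of them). Of all 16359 genes 0 passed in either class, and 2030 and 1792 had an unadjusted p under 0.05. The DOK7 step did not differ between classes after adjustment (-0.59, limma adjusted p = 0.30), nor did that of any gene tested.

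Across the 20 compounds the genes varied together to different degrees, given as Pearson's r over compound means that share controls and flow cells. CHRND and DOK7 were the closest pair (0.90), followed by CHRNB1 and CHRND (0.90), CHRNB1 and DOK7 (0.88), and CHRNG and MUSK (0.88). CHRNA1 was less like CHRNG and MUSK (0.54 with each). CHRNE was the least like the others, with r between 0.19 (MUSK) and 0.54 (CHRNA1). With MYOG the r was highest for MUSK (0.80) and with MYOD1 for RAPSN (0.82), and for CHRNE it was 0.02 and 0.08. Among 13831 genes with a mean of at least 1 TPM in the screen, the most alike were TMEM233 (0.96), FERMT3 (0.95) and ZNF668 (0.95) for CHRNA1; ADGRA1 (0.92), ADRA2C (0.90) and LOC100128531 (0.90) for CHRNB1; ADGRA1 (0.96), N4BP3 (0.94) and SSTR5-AS1 (0.93) for CHRND. PPFIA4 (0.96), LOC643355 (0.95) and MYO18B (0.94) were the most alike for CHRNG; CDK5RAP3 (0.89), RRN3P1 (0.88) and SLC26A10 (0.87) for CHRNE; ANK2 (0.95), KCNMA1 (0.94) and VIPR2 (0.93) for MUSK. LRRC75B (0.96), TXNRD2 (0.96) and WDR18 (0.95) were the most alike for RAPSN, and SSTR5-AS1 (0.96), SYNDIG1 (0.96) and ADGRA1 (0.95) for DOK7, so that ADGRA1 stood near CHRNB1, CHRND and DOK7.

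The partners of these genes at the synapse were taken from 5 lists. Their counts stand beside the shares of all genes called lower given above and beside the shares called higher, which were 13.7% under LAQ824, 5.34% under WT161, 3.96% under Bromosporin, 6.84% under MC1568, 0.935% under GSKLSD1, 0.532% under trametinib and 0.483% under LSD-690. Of 8 tested regulators of synaptic transcription, 3 were lower under both LAQ824 and WT161, MYOD1 (log2 changes -3.12 and -1.69), MYOG (-3.50 and -2.10) and GABPB1 (-2.09 and -1.39), and under Bromosporin MYOD1 (-1.08) and MYOG (-1.86) were lower. Under trametinib ETV5, an ETS factor known to act at synaptic genes, was lower (-4.43), and under UNC0638 MYOD1 was lower (-1.18). MYF5, MYF6 and DACH2 did not pass the filter on low values.

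Of 15 genes of agrin and neuregulin signalling, LAQ824 lowered 3, ERBB3 (-1.82), NRG1 (-2.19) and PAK1 (-1.02), and raised AGRN (1.34) and CDK5 (1.13). Under Bromosporin 4 were lower (ERBB2, ERBB3, NRG1 and PAK1, from -1.03 to -1.71) and under SGC-CBP30 ERBB3 (-1.33). MC1568 raised 3, AGRN (1.10), LRP4 (1.08) and PAK1 (1.23), and under trametinib ERBB3 was higher (1.14). LRP4, the agrin receptor that acts through MUSK, stood at a mean of 10.2 TPM in screen DMSO.

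Of 15 tested genes of the cleft, matrix and scaffold, acetylcholinesterase, ACHE (2.01 and 1.94), and its collagen anchor COLQ (2.57 and 1.27) were higher under LAQ824 and WT161, in the libraries where receptor genes were lower. LAQ824 also raised PLEC and lowered NES, SNTB1 and the muscle sodium channel SCN4A (-1.85), which fell under Bromosporin (-1.89) and SGC-CBP30 (-2.08) too. Under Bromosporin COLQ (1.09) was higher and DTNA, SNTB1 and SYNE1 were lower, and DTNA was lower under SGC-CBP30. DTNA was higher under WT161, Cpd50 and MC1568, SNTB1 under LSD-690, LAMA5 under GSKLSD1 and MC1568 and LAMB2 under MC1568, while NES was lower under UNC0638. ACHE was low in DMSO, at a mean of 3.29 TPM, and COLQ at 2.45 TPM. Of 5 glycosylation genes linked to synaptic disease, ALG14 was lower under Bromosporin, LAQ824 and WT161 (-1.64, -1.38 and -1.08) and ALG2 was higher under LAQ824. Of 11 neuronal nicotinic subunits 4 were tested, led by CHRNA5 at a mean of 17.6 TPM in DMSO, with CHRNA10 higher under LAQ824 (1.07) and CHRNA9 under MC1568 (1.06); CHRNA7 can share reads with a near-identical copy.

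Entinostat was followed over time, with 1 library per time and treatment, so the intervals below are 95% intervals for counting error only and no test was made. At 1 h CHRNA1 was at 862 TPM against 837 in DMSO and DOK7 at 28.3 against 26.7. At 6 h DOK7 was at 14 TPM against 25.2, 0.557 times DMSO (0.496 to 0.626). CHRNA1 was at 668 against 765 TPM (0.874 times) and CHRNB1 at 185 against 181 TPM. CHRNE rested on 15 reads against 6 (2.00 times, 0.734 to 6.30).

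At 24 h 6 of the 8 genes were at least 2-fold lower on the log2(TPM + 1) scale, as were 6.06% of all genes tested. CHRNA1 was at 171 TPM against 770 (0.222 times, 0.214 to 0.229), CHRNB1 at 49.4 against 180 (0.274 times), and CHRND at 49.7 against 192 (0.258 times). CHRNG was at 5.15 against 35.3 TPM (0.146 times, 0.121 to 0.175), DOK7 at 4.65 against 25.0 (0.186 times) and RAPSN at 79.2 against 192 (0.413 times). MUSK went the other way at both later times: it was at 17.8 against 12.5 TPM at 6 h (1.42 times, 1.25 to 1.62) and at 21 against 11.8 TPM at 24 h (1.78 times, 1.57 to 2.01). CHRNE, at 0.341 against 0.534 TPM, rested on 10 and 17 reads (0.639 times, 0.262 to 1.48). MYOD1 was at 113 against 367 TPM and MYOG at 107.3 against 546 TPM in the 24 h libraries. At 6 h the change of MUSK under entinostat depended on the control. Relative to the mean of both 6 h DMSO libraries titled RH4 the difference was -0.01 in place of 0.48 on the log2(TPM + 1) scale. Relative to the mean of the 3 time-course DMSO libraries it was 0.59. MUSK was at 10.2 to 12.5 TPM in the time-course DMSO libraries and at 25.4 TPM in the N1302 control.

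N1302 at 6 h, again 1 library against 1, gave lower values for 7 of the 8 genes. The share of all genes with a lower value was not counted. Of the 8 genes, 3 were at least 2-fold lower on the log2(TPM + 1) scale, as were 19.3% of all genes tested. DOK7 was at 1.11 against 11 TPM (0.101 times, 0.0608 to 0.159), MUSK at 4.49 against 25.4 TPM (0.177 times, 0.140 to 0.221) and RAPSN at 58.2 against 143 TPM (0.406 times, 0.372 to 0.442). CHRNA1, at 654 against 1116 TPM, was at 0.587 times its control, and CHRNB1, CHRND and CHRNG were at 0.497, 0.520 and 0.520 times theirs. CHRNE had 6 reads against 3 (2.86 times, 0.611 to 17.7). Scaling by the median of 6316 well-expressed genes moved all N1302 changes up by 0.33 on the log2 scale before the pseudocount, which left DOK7 (-2.34) and MUSK (-1.99) past 2-fold and RAPSN (-0.96) short of it. MYOD1 was at 48.5 against 249 TPM and MYOG at 32.2 against 391 TPM.

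**Figure D5:**
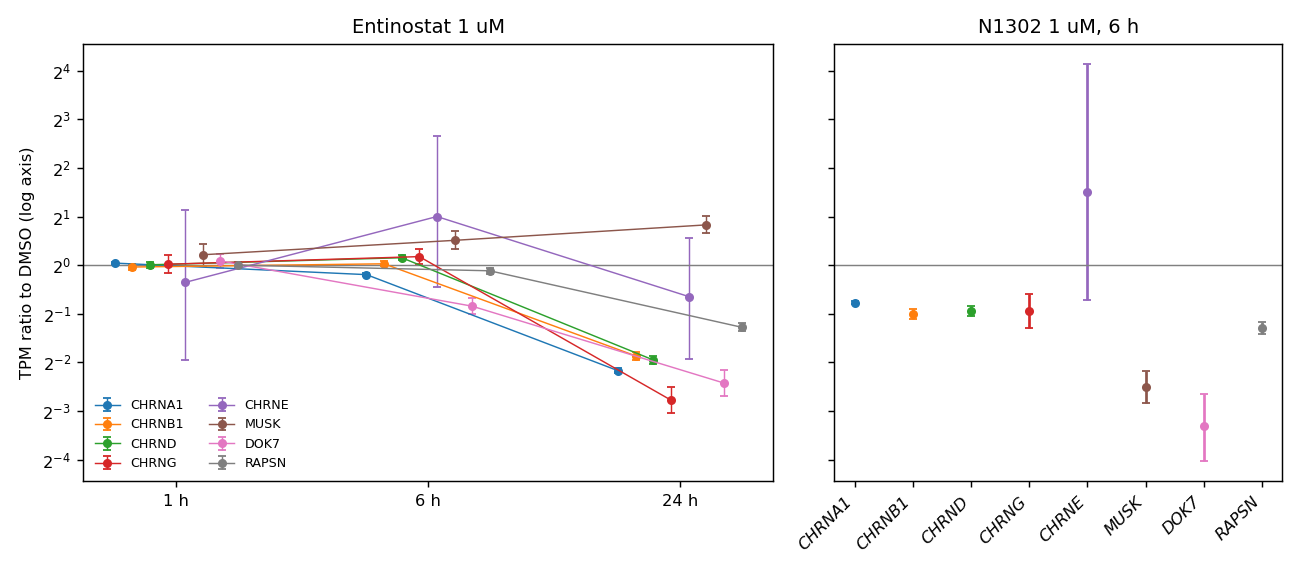
TPM relative to the DMSO library of the same time (y axis, logarithmic to base 2) for entinostat at 1, 6 and 24 h (left) and N1302 at 6 h (right), 1 library per point, with bars giving 95% intervals for counting error. At 24 h CHRNG is lowest at 0.146 times DMSO and MUSK highest at 1.78 times; under N1302 MUSK is at 0.177 times.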

How the data were processed

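Per the study's methods, the authors made poly-A libraries, used STAR for alignment to hg19 and RSEM for expression; the submitters' processing notes also name edgeR, and sequencing was paired-end per the labels. The deposited values are TPM, 1 table per library. All 23645 genes above 0 TPM were whole multiples of a common step, which gave read numbers. Genes with at least 1 TPM in 2 or more of the 52 libraries were tested. limma 3.58.1 (R 4.3.3, trend) was fitted on log2(TPM + 1), so folds of low genes are understated, over 42 columns: 40 treated libraries and 1 DMSO mean per concentration. P-values were adjusted by Benjamini-Hochberg over 16359 genes. The authors' methods average over 4 DMSO samples, an alternative here. Classes were compared over 18 compound means. DMSO replicate numbers pair libraries by flow cell in the labels (correlation of deviations 0.07). Intervals are exact conditional binomial ones. Fits were tested on simulated data. Named genes were the 8 genes, listed genes that were called, and the 3 most alike genes. Members and lists were chosen with earlier results of these data known. Values used Python 3.11.15. Some listed genes are not reported here.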

Additional observations from a re-analysis of the deposited data

Results flagged for a closer look

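Against the DMSO library of the same time, 2 receptor subunits lay above 1 at 6 h and below 1 at 24 h of entinostat, with counting intervals on either side of 1. CHRND was at 1.11 times DMSO at 6 h and at 0.258 times at 24 h. CHRNG was at 1.13 times DMSO at 6 h and at 0.146 times at 24 h. Each value compares 1 library with 1, and the difference between the times was not tested. The 6 h levels under entinostat, 177 TPM for CHRND and 28.9 TPM for CHRNG, lay within the range of the 3 time-course DMSO libraries (159 to 192 and 20.6 to 35.3 TPM). Counting intervals leave out that spread, so a rise at 6 h is not shown.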

How the results depend on the processing

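The 23 calls kept their direction under the alternatives run. Fits on a compound's own samples and DMSO alone made 9 lower calls and kept 8 of the 20, the ninth being DOK7 under trametinib (adjusted p = 0.0227). For WT161, Bromosporin, SGC-CBP30 and UNC0638 these fits called 0 of all 16359 genes, so the loss of their calls is not particular to the 8 genes. Against the other compounds of the flow cell without DMSO, which could be done for 14 of the 20 compounds, 9 of their 13 lower calls were kept and 4 lost. That reference includes the compounds under which these calls were made, which weakens lower calls on genes that several of them lower. Without a fold threshold 9 pairs were called higher in place of 3. Leaving out DMSO replicate 1 or 2 gave 20 lower and 3 higher calls each time. The class difference, with 0 of 8 genes at the threshold, gave 4 with a mean TPM of at least 5 as filter, 3 at the high dose alone, 7 without MC1568, 6 without Merck60 and 5 without OJI-1, where 833 of 11106, 1614, 2503, 2673 and 3056 genes passed (of 16359 for the last 4). It stayed at 0 at the low dose alone, within flow cell C5JW5ACXX, with flow cell as a covariate and without LAQ824, WT161, Bromosporin or SGC-CBP30. The dose step of methylation compounds minus the DMSO step gave 1 gene, CHRNB1 (0.18, adjusted p = 0.046), in place of 0, and 609 of all 16359 genes in place of 0. With the replicate block 0 of 8 genes differed between DMSO concentrations, as without it, and it changed no call. Under N1302, 6 genes were 2-fold lower against the mean of both 6 h controls in place of 3, and with a pseudocount of 0.1 1 gene, CHRNE, was 2-fold higher in place of 0. Median-ratio scaling moved all changes up by 0.12 for Bromosporin, 0.13 for Cpd50, 0.11 for UNC0638, 0.33 for N1302 and 0.12 for entinostat at 6 h (log2), and kept all 23 calls. The cause of these shifts was not tested. CHRNE, with 1 to 75 reads, is limited by depth.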

Other observations

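Under the HDAC inhibitors at 6 h MUSK was at 0.177 times DMSO under N1302 and at 1.42 times under entinostat, with 1 library each in separate experiments, while DOK7 was below DMSO in both, at 0.101 and 0.557 times. Against the mean of both 6 h DMSO libraries titled RH4, MUSK under entinostat differed by -0.01 in place of 0.48 on the log2(TPM + 1) scale. Against the mean of the 3 time-course DMSO libraries it differed by 0.59. The change under entinostat thus depended on the control, and a difference in direction between the 2 compounds was not tested. ACHE and COLQ, the enzyme that degrades acetylcholine and its anchor, were called higher under LAQ824 and WT161, in the same libraries where CHRNA1, CHRNB1, CHRNG, RAPSN and DOK7 were called lower; 13.7% of all genes were called higher under LAQ824 and 5.34% under WT161.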
